A study of Mus musculus with 9 samples.

Results

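A set of 6 genes that encode surface proteins of blood progenitors and leukaemia cells, Kit, Cd34, Flt3, Muc13, Cd93 and Adgrg1, were followed through a cycle of PU.1 suppression, restoration and renewed suppression in mouse acute myeloid leukaemia cells. These 6 genes are of 27179 counted gene entries, and all 6 were among the 12004 entries that passed the filter on low counts. They were chosen by name as stem and progenitor surface genes and from their CPM in the 3 conditions, which were already known. Their differences between conditions are therefore given as descriptions without a test, while the differences between clones were tested.

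KIT and FLT3 are receptor tyrosine kinases that bind stem cell factor and FLT3 ligand and drive survival and growth of early blood cells. CD34 is a sialomucin, a heavily glycosylated surface protein, and is the classical marker of stem and progenitor cells. MUC13 is a transmembrane mucin best known from epithelia, CD93 is a C-type lectin-like receptor of progenitors and endothelium, and ADGRG1 (GPR56) is an adhesion G protein-coupled receptor used to mark stem cells and leukaemia stem cells. PU.1, encoded by Spi1, is an ETS-family transcription factor that binds DNA at sites with a GGAA core and is required for myeloid differentiation.

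The cells, named AML246, are p53-/- shPU.1 leukaemia cells on the C57BL/6 background, grown in medium with IL3. All 9 libraries carry the deletion and the hairpin against PU.1, and each is 1 of 3 single-cell clones (numbered 1, 2 and 4) in 1 of 3 conditions. Untreated cells were sorted as GFPhigh, cells given doxycycline (Dox) for 14 days as GFPoff, and washed cells, which had 14 days of Dox and then 14 days without it, as GFPhigh again. The series calls the clones biological triplicates, but all come from 1 line. P-values between conditions, from fits without the clone, thus measure the spread between clones of that line. Where the clone is in the fit, p-values rest on the spread that the fit leaves over. In bulk RNA, fewer cells that express a gene and less RNA per cell cannot be told apart.

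Levels are CPM, the counts of a gene relative to the total of its library, with that total scaled by trimmed-mean (TMM) factors. Library totals ran from 7408118 to 9803258 counts. Untreated clone 1 stood apart with 22.0% of its counts on 1 entry and a scaling factor of 0.736, against 0.916 to 1.18 in the others. Spi1 itself measured 48.1, 46.6 and 23.7 CPM in clones 1, 2 and 4 without treatment, 197, 191 and 156 CPM with doxycycline, and 52.0, 40.6 and 23.9 CPM after the wash. The target of the hairpin was thus higher in every doxycycline library than in any other, as were 13.1% of all tested genes. Its untreated and washed levels overlapped. Washed clone 1 also stood apart: the primary granule gene Mpo was at 1720 CPM there, against 65.1 and 50.04 CPM in washed clones 2 and 4. Of the pan-leukocyte genes, Ptprc, which encodes CD45, was at 0.988 to 2.02 CPM in the untreated cells and at 28.0 to 45.1 CPM with doxycycline, whereas the 10 genes of a blood and myeloid identity list summed to 1883 to 2204 CPM in untreated cells, 3622 to 4352 CPM with doxycycline and 1829 to 1997 CPM after the wash.

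Of the 4 genes that followed the PU.1 cycle, Kit and Cd34 moved in the same direction as Spi1, and Adgrg1 and Muc13 in the opposite one. Sequences before the first RefSeq start of these 4 genes are shown because PU.1 is a DNA-binding factor. They are from RefSeq on GRCm38.p6, read 5′ to 3′ on the gene's strand, begin 250 bases before that start, and stop before any annotated exon. For Adgrg1 this start lies inside the gene as counted, which begins farther upstream, at 94974756. Capitals mark GGAA on either strand (TTCC where it lies on the other strand), and in Kit the longer GAGGAAG that contains it.
Kit, chr5:75574737-75574915, + strand: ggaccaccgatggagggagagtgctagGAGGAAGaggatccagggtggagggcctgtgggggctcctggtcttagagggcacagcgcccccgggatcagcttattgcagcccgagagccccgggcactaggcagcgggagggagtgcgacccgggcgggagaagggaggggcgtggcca
Cd34, chr1:194938571-194938818, + strand: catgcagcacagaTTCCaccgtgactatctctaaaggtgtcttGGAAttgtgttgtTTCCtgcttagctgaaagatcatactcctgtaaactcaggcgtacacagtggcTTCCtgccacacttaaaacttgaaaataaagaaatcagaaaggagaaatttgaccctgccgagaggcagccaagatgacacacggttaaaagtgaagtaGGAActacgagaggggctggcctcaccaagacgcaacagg
Adgrg1, chr8:94976859-94976992, + strand: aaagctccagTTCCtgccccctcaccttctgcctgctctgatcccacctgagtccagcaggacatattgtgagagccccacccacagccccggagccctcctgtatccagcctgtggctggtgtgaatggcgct
Muc13, chr16:33793787-33794036, + strand: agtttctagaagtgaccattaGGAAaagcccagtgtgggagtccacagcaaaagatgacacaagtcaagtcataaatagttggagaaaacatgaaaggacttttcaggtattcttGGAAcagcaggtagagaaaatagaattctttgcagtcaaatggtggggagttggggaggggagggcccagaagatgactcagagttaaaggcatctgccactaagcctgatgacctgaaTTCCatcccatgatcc

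In the 250 bases before the first start, Kit held 1 GGAA, Cd34 held 5, Adgrg1 held 1, Muc13 held 3 and Flt3 held 2. Genes higher and genes lower with doxycycline thus both had the core, and so did 93.4% of 32851 windows of the same length before RefSeq starts, with a median of 3 matches. The longer PU.1-like GAGGAAG was found only before Kit among these 5 genes, against 10.6% of all windows. The GATA-like AGATAA was found before none of the 5, against 9.99% of windows. Both strands were searched, and each GAGGAAG match is also counted as a GGAA match. RefSeq lists a further start for Kit, Adgrg1 and Muc13, and the windows before these held 1 GGAA for Kit, 0 for Adgrg1 and 1 for Muc13. Cd93 was not in the table used. These matches describe letters and were not tested for binding.

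Kit and Cd34 were higher in all 3 doxycycline libraries than in all 6 others. Adgrg1 and Muc13 were lower in all 3 than in all 6 others, and Flt3 and Cd93 did neither. Among all genes tested, 13.1% had every doxycycline library above every other and 10.1% had every one below. The 6 genes were picked with these levels known, so nothing is read from their count.

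**Figure D1:**
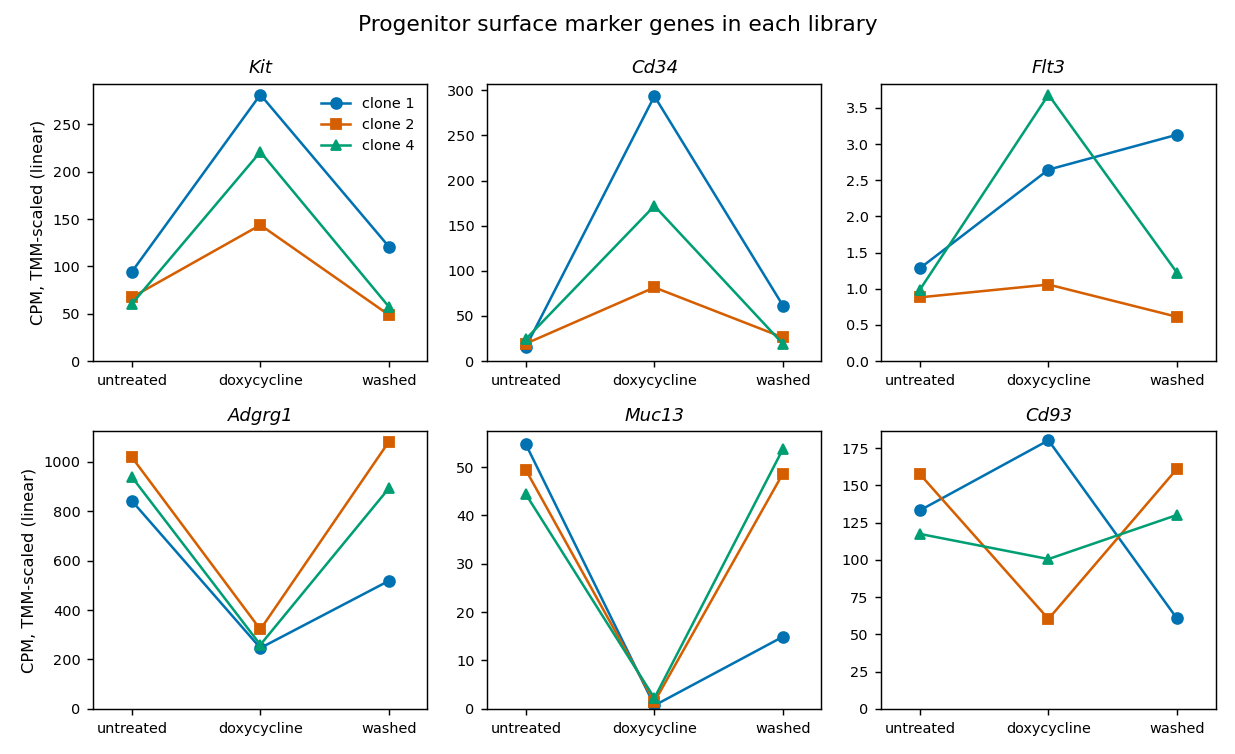
Level of each of the 6 genes in CPM (TMM-scaled, linear axes from 0) in the 3 conditions; each point is 1 library and each line joins the libraries of 1 clone. Kit and Cd34 peak with doxycycline in all 3 clones, Adgrg1 and Muc13 dip in all 3, and Flt3 and Cd93 follow no common course; among the washed libraries, clone 1 is the farthest from its untreated level for Cd34, Adgrg1, Muc13 and Cd93.

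Kit (Entrez 16590) encodes the receptor for stem cell factor and lies on mm10 chromosome 5 from 75574987 to 75656722. Its level was 94.3, 67.4 and 60.4 CPM in clones 1, 2 and 4 when untreated, 281, 144 and 221 CPM with doxycycline, and 121, 48.8 and 57.4 CPM after the wash. Each doxycycline library exceeded all others, the closest approach being clone 2 with doxycycline over washed clone 1. Within clones the level with doxycycline was 2.98, 2.13 and 3.66 times the untreated one. The group means were 74.0 ± 17.9 CPM untreated, 215 ± 69.0 CPM with doxycycline and 75.7 ± 39.4 CPM washed (SD, n = 3).

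Flt3 (Entrez 14255; chromosome 5, 147330741 to 147400489) encodes the other receptor tyrosine kinase of the set and was barely detected. Its counts were 7, 7 and 8 in untreated clones 1, 2 and 4, then 30, 8 and 38 with doxycycline, and 34, 5 and 10 after the wash. These correspond to 1.28, 0.882 and 0.988 CPM untreated, 2.65, 1.06 and 3.68 CPM with doxycycline, and 3.13, 0.613 and 1.22 CPM washed. Clone 2 did not exceed 8 counts in any condition, and washed clone 1 was as high as its doxycycline library, so the groups overlapped. With so few counts the Poisson interval of a single library was wide, for example 2.81 to 14.4 for the 7 counts of untreated clone 1 (95%, counting error only).

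Cd34 (Entrez 12490; chromosome 1, 194938821 to 194961292) had the largest increase with doxycycline of the 6. Its level was 16.0, 19.4 and 24.5 CPM in untreated clones 1, 2 and 4, 293, 81.6 and 172 CPM with doxycycline, and 61.6, 26.2 and 19.1 CPM after the wash. The lowest doxycycline library, clone 2, was still above the highest washed one, clone 1. Within clones the level with doxycycline was 18.4, 4.21 and 7.03 times the untreated one, and the clone with the lowest untreated level had the highest one with doxycycline. Group means were 19.9 ± 4.28, 182 ± 106 and 35.6 ± 22.8 CPM (SD, n = 3) in the untreated, doxycycline and washed cells.

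Muc13 (Entrez 17063; chromosome 16, 33794037 to 33819929) nearly vanished with doxycycline. It was at 54.7, 49.4 and 44.3 CPM in untreated clones 1, 2 and 4, at 0.706, 1.46 and 2.23 CPM with doxycycline, and at 14.9, 48.6 and 53.7 CPM after the wash. The doxycycline levels rest on 8, 11 and 23 counts, with exact Poisson 95% intervals of 3.45 to 15.8, 5.49 to 19.7 and 14.6 to 34.5 counts. The untreated level was 77.4, 33.9 and 19.9 times the doxycycline level in clones 1, 2 and 4. Clones 2 and 4 came back to their untreated level after the wash, and clone 1 came back to 0.273 of it. An antisense transcript, Gm15657, shares up to 184 exon bases with Muc13, and Gm16897 shares 148 with Cd34. The strand setting of the counting is not given in the sources used here, so reads of each pair cannot be told apart.

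Cd93 (Entrez 17064; chromosome 2, 148436651 to 148443535) did not move the same way in the 3 clones. It was at 133, 157 and 117 CPM in untreated clones 1, 2 and 4, at 180, 60.3 and 100.5 CPM with doxycycline, and at 60.7, 161 and 130 CPM after the wash. Clone 1 was highest with doxycycline and lowest after the wash, while clones 2 and 4 were both lowest with doxycycline, clone 4 by a smaller margin. The doxycycline level was 1.35, 0.383 and 0.856 times the untreated one, and the 3 groups overlapped throughout.

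Adgrg1 (Entrez 14766; chromosome 8, 94974756 to 95014208) had the highest level per length of the 6 in untreated and washed cells and a similar decrease with doxycycline in each clone. It was at 842, 1019 and 939 CPM in untreated clones 1, 2 and 4, at 246, 322 and 259 CPM with doxycycline, and at 518, 1082 and 893 CPM after the wash. No doxycycline library reached the lowest of the others, washed clone 1. The untreated level was 3.42, 3.17 and 3.62 times the doxycycline level, the narrowest spread between clones among the 4 genes that followed the cycle. Group means were 933 ± 88.5, 276 ± 40.2 and 831 ± 287 CPM (SD, n = 3).

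Per kilobase of counted length, the order of the 6 genes changed with the PU.1 state. In untreated cells Adgrg1 led with a mean of 241 CPM per kb, followed by Cd93 at 20.5, Muc13 at 16.7, Kit at 14.3, Cd34 at 7.61 and Flt3 at 0.287. With doxycycline Adgrg1 at 71.4 CPM per kb and Cd34 at 69.6 were level, Kit followed at 41.5 and Cd93 at 17.1, while Flt3 at 0.673 and Muc13 at 0.493 were last. In untreated cells the libraries of Cd93, Muc13 and Kit overlapped with their neighbours in this order, and Adgrg1, Cd34 and Flt3 stood apart. With doxycycline Adgrg1, Cd34 and Kit overlapped, as did Flt3 and Muc13, and Cd93 lay between these sets. Washed cells had Adgrg1 at 215 CPM per kb, and Cd93, Kit, Cd34 and Muc13 between 13.2 and 17.7 with overlapping libraries.

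How far the 6 genes came back after the wash is given as a description, since their washed and untreated levels were known when they were picked. Over all genes, edgeR's quasi-likelihood test with Benjamini-Hochberg adjustment called 0 of 12004 (0%) at a threshold of 0.05 between washed and untreated cells. At an unadjusted p under 0.05 there were 38 genes, and DESeq2 and limma voom also called 0 (41 and 25 unadjusted). These fits left out the pairing by clone, so differences between clones widen their spread. With the clone as a replicate block edgeR called 0 as well (98 unadjusted). Each unadjusted count is below the share of 0.05 given by genes without any difference, so these tests were cautious. The intervals of the 6 come from the unpaired edgeR fit and were wide. For Cd34 the log2 fold change was 0.84 with a 95% interval of -0.33 to 2.01, which reaches from 0.794 to 4.02 times the untreated level. Kit was at 0.03 (-0.81 to 0.88), Adgrg1 at -0.17 (-0.78 to 0.44) and Muc13 at -0.34 (-1.36 to 0.68). The genes without a common course were at 0.69 (-0.82 to 2.20) for Flt3 and at -0.21 (-1.17 to 0.75) for Cd93. Each interval holds 0 and also sizeable changes in either direction, so equal levels are not shown.

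Return was least complete in clone 1. Taking the doxycycline level as 0% and the untreated level as 100% on the log2 scale, Cd34 returned by 53.8% in clone 1, 79.1% in clone 2 and 113% in clone 4. Adgrg1 returned by 60.5%, 105% and 96.1%, Muc13 by 68.4%, 99.6% and 107%, and Kit by 77.3%, 143% and 104%. Spi1 had come back in all 3 clones, by 94.4%, 110% and 99.7%. Over the 1311 genes called between doxycycline and untreated cells, the median return was 79.8%, 101% and 99.7% in clones 1, 2 and 4. The lower return in clone 1 was thus also seen over all called genes, and clone 1 was 1 library per condition, so no test was made. In washed clone 1, Cd34 was 3.86 times its untreated level, and Muc13 was 0.273 times its own.

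Without the washed library of clone 1, the log2 fold changes of washed against untreated cells were -0.48 for Kit, 0.08 for Adgrg1, 0.05 for Muc13, -0.18 for Flt3 and 0.10 for Cd93, each with the opposite sign to the value over all libraries. For Cd34 the value was 0.18 instead of 0.84 without that library, and was 0.046 without clone 1 altogether and 1.31 without clone 4. The same library carried more RNA of primary granule genes: besides Mpo, Elane was at 203 CPM against 19.6 and 38.4 CPM in washed clones 2 and 4, and Ctsg at 952 against 119 and 110.2 CPM. The part of these granule genes in the incomplete return was not tested.

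**Figure D2:**
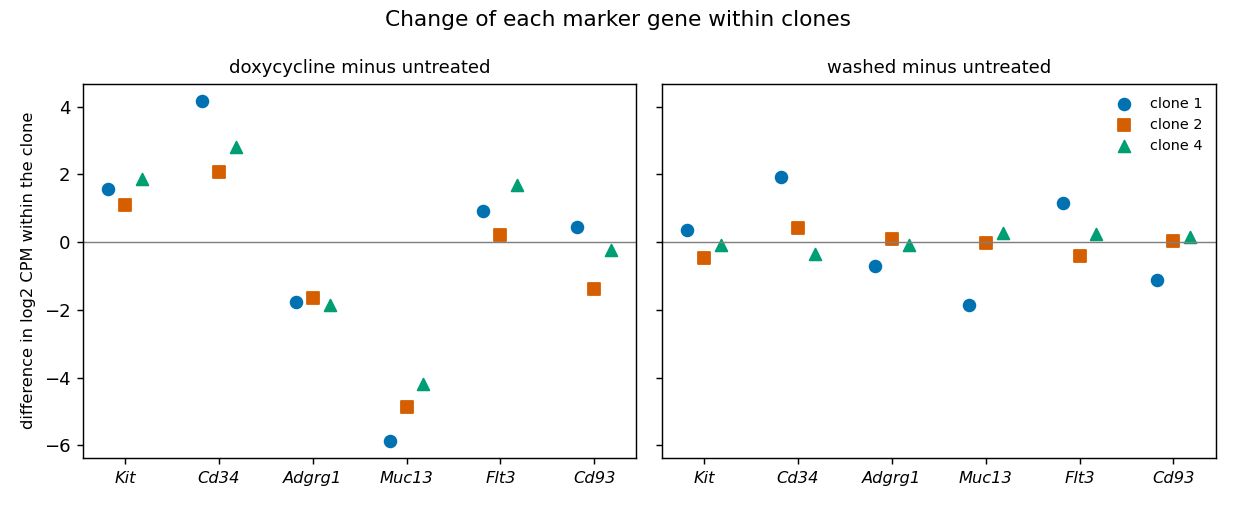
Difference in log2 CPM (prior count 2) within each clone, doxycycline minus untreated on the left and washed minus untreated on the right; each symbol is 1 clone and the line marks no difference. On the left Kit and Cd34 lie above the line and Adgrg1 and Muc13 below it in all 3 clones. On the right clones 2 and 4 lie farthest from the line for Kit in clone 2, at -0.46, where clone 1 lies at 0.36. For Cd34 clone 1 lies at 1.93, and for Muc13 at -1.86.

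Differences between clones, with the condition in the model, were called for 0 of the 12004 genes (0%) by the same test, where 4501 genes had an unadjusted p under 0.05 and the smallest adjusted p was 0.0505. Kit came nearest among the 6, with mean log2 CPM of 7.21, 6.29 and 6.52 in clones 1, 2 and 4 and an adjusted p of 0.0591. The call depended on the method: over the alternatives the adjusted p of Kit ran from 0.00235 with DESeq2 to 0.254 without clone 2, and it was 0.0485 with limma voom and 0.0316 without the filter on low counts. DESeq2 called 2764 genes between clones and limma voom 1013. Kit was higher in clone 1 than in the other two clones in each of the 3 conditions. The adjusted p was 0.151 for Adgrg1, 0.151 for Flt3, 0.180 for Cd34, 0.286 for Muc13 and 0.973 for Cd93.

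The size of the change with doxycycline was also compared between clones, taking the untreated and the washed library of a clone as its pair with the hairpin on. Over the 3 clones, 0 of 12004 genes (0%) passed by edgeR, 407 had an unadjusted p under 0.05, DESeq2 called 5 and limma voom 0. The adjusted p was 1 for all 6 genes, and Cd93 had the smallest unadjusted p of them, 0.0258. Between clones 2 and 4 alone, 9.87% of 12143 genes passed, and among these were Cd93 with an adjusted p of 1.69e-05, Cd34 with 0.000618 and Kit with 0.0299. Cd93 was at 60.3 CPM with doxycycline in clone 2 against 157 and 161 CPM in its other libraries, and at 100.5 CPM against 117 and 130 CPM in clone 4. Cd34 and Kit increased more in clone 4 than in clone 2, at 7.03 against 4.21 times for Cd34 and 3.66 against 2.13 times for Kit. In clone 1, Cd34 increased 18.4 times and Kit 2.98 times, and Cd93 was at 180 CPM with doxycycline against 133 and 60.7 CPM. For Adgrg1 the untreated level was 3.42, 3.17 and 3.62 times the doxycycline level in clones 1, 2 and 4. For Muc13 it was 77.4, 33.9 and 19.9 times. In both fits, over the 3 clones and over clones 2 and 4 alone, the spread comes only from the untreated and washed pairs. Each clone had 1 doxycycline library, so these p-values cannot tell a response particular to a clone from variation of that library. Flt3 was not in the fit of clones 2 and 4 alone.

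Related genes were taken from 6 lists of surface proteins, ligands, signalling partners and transcription factors, which do not include the 6 genes themselves. With doxycycline against untreated cells, 6.57% of all tested genes were higher and 4.35% lower at an adjusted p of 0.05 (edgeR), and with the wash against doxycycline 3.64% were higher and 6.02% lower. The median log2 fold change of all tested genes was 0.00 with doxycycline. The number of calls depended on which libraries were left out: without clone 1, 967 genes were called, without clone 2, 159, and without clone 4, 0 of 12069. Without the untreated library of clone 1, 347 were called, and with the clone as a replicate block 2976, against 1311 over all libraries.

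Surface genes of stem and multipotent progenitors were mostly absent or did not pass. Of 30 genes, 19 were tested, 4 rose and 1 fell with doxycycline, and the median log2 fold change of the 19 was 0.70. Cd24a, encoding a small mucin-like protein that is anchored in the membrane by a lipid, rose from 131 to 854 CPM (adjusted p = 0.0163), and Itga2b, the CD41 integrin chain of megakaryocytes and early progenitors, from 169 to 541 CPM (adjusted p = 0.0224). The tetraspanin Cd151 fell from 32.3 to 14.5 CPM (adjusted p = 0.0202). Eng, a TGF-beta co-receptor, rose from 4.69 to 18.7 CPM (adjusted p = 0.0299) and is named here after its values were seen. Slamf1 and Cd48, used to sort stem cells, did not exceed 0.194 and 0.529 CPM in any library. Prom1, encoding CD133, was at 18.5 CPM with doxycycline and 28.4 CPM after the wash in clone 1, and at no more than 3.30 CPM elsewhere, so it did not pass (adjusted p = 0.380). With the replicate block 7 rose and 1 fell. With clone 1 left out 3 rose and 0 fell, with clone 2 left out 1 rose, with the untreated library of clone 1 left out 2 did, and with clone 4 left out none was called.

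Of 13 tested genes for surface proteins used to mark leukaemia stem cells (20 on the list, 19 matched), 8 rose and 1 fell, with a median log2 fold change of 1.31. Cd33, encoding a sialic acid-binding receptor targeted in leukaemia therapy, rose from 0.227 ± 0.0382 to 6.57 ± 3.86 CPM (log2 fold change 4.75, adjusted p = 0.00979) and was at 0.194 CPM after the wash. Cd37, a leukocyte tetraspanin, went from 130.5 to 348 CPM (adjusted p = 0.00592), and Fcgr2b, the inhibitory Fc receptor, from 109 to 424 CPM (adjusted p = 0.00785). Cd44, the hyaluronan receptor, rose from 208 to 346 CPM (adjusted p = 0.0181). The other 5 called genes are named after their values were seen: Clec12a, Cd52, Il1rap and Vsir rose, and Lgals9 fell by 0.77 on the log2 scale (adjusted p = 0.0363). Clec12a was unequal between clones, at 217, 40.6 and 56.3 CPM with doxycycline against 7.89, 5.79 and 2.47 CPM untreated. After the wash 7 of the 13 fell again and 1 rose. Several of these genes are also borne by mature myeloid cells, and the list is not independent of earlier results on these libraries. With clone 1 left out 8 rose and 0 fell, with only its untreated library left out 2 rose, and with clone 2 or clone 4 left out none of the list was called.

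**Figure D3:**
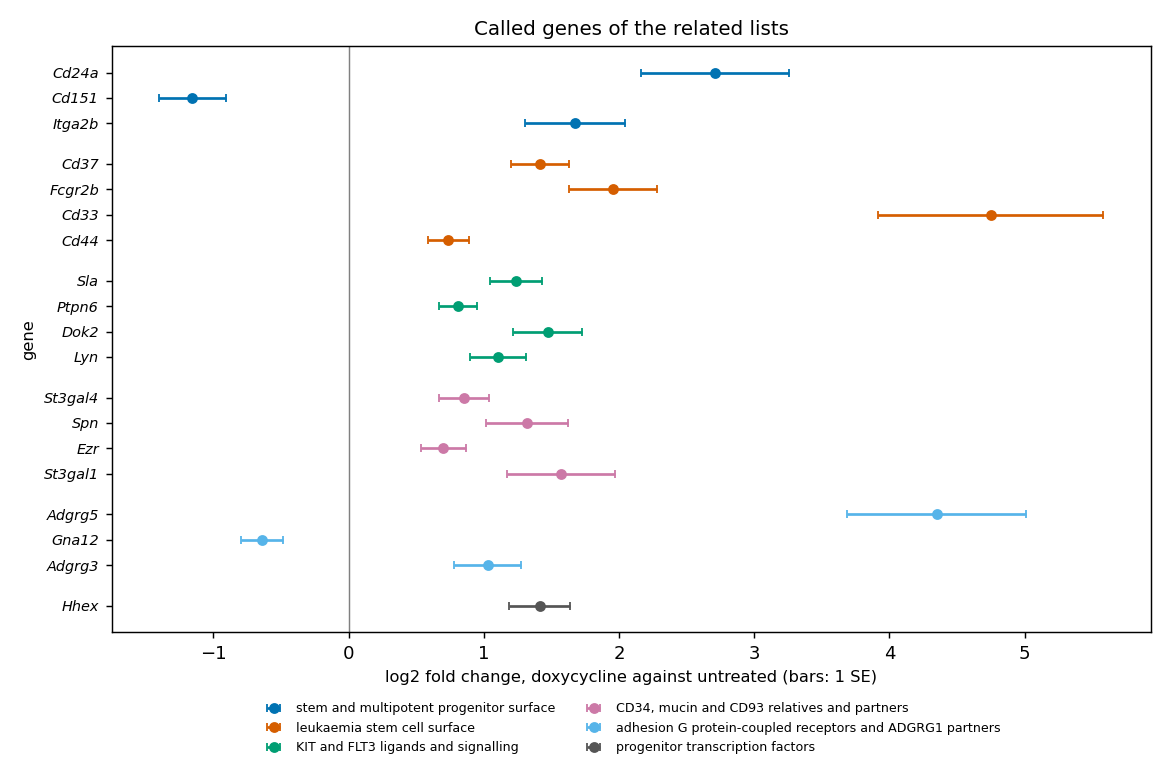
Log2 fold change with doxycycline against untreated cells (edgeR, bars are 1 SE, 3 libraries per group) for called genes of smallest p in each related list, at most 4 a list, coloured by list; Adgre4, with 0 counts in untreated cells, is not drawn. All but Cd151 and Gna12 lie to the right of 0, and Cd33 at 4.75 and Adgrg5 at 4.35 lie farthest.

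Among ligands and signalling partners of KIT and FLT3, 34 genes were tested (38 on the list, 37 matched), 4 rose and 1 fell, and the median log2 fold change was 0.12. Those that rose by the rule were Sla, an adaptor that dampens receptor signalling, from 68.1 to 161 CPM (adjusted p = 0.00596), Ptpn6, the phosphatase SHP-1, from 86.6 to 152 CPM (adjusted p = 0.00924), Dok2, a docking adaptor, from 9.55 to 26.6 CPM (adjusted p = 0.00925), and Lyn, a Src-family kinase, from 36.9 to 79.2 CPM (adjusted p = 0.0120). Spry2, a feedback inhibitor of receptor tyrosine kinases, fell by 1.53 on the log2 scale (adjusted p = 0.0211) and is named after its values were seen. Kitl, the KIT ligand, had at most 0.123 CPM in any library. Flt3l, the FLT3 ligand, was at 24.8, 37.8 and 34.2 CPM in untreated clones 1, 2 and 4, at 9.44, 34.5 and 29.3 CPM with doxycycline, and at 4.79, 46.0 and 28.3 CPM after the wash. Clone 1 alone was low for Flt3l in both later conditions. The replicate block gave 5 that rose and 3 that fell. Without clone 1, 4 rose and 1 fell, without clone 2 and without the untreated library of clone 1, 1 gene of the list was called each time, and without clone 4 none.

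Relatives and partners of CD34, the mucins and CD93 had 19 of 30 genes tested, 4 that rose and 0 that fell, with a median log2 fold change of 0.20. Spn, encoding the sialomucin CD43, rose from 361 ± 56.8 to 902 ± 279 CPM (adjusted p = 0.0264). St3gal1 and St3gal4, which add sialic acid to glycans, rose from 57.6 to 171 CPM (adjusted p = 0.0363) and from 75.8 to 137 CPM (adjusted p = 0.0208), and Ezr, which ties membrane proteins to actin, from 253 to 411 CPM (adjusted p = 0.0290). All 4 fell again after the wash. Podxl, the closest relative of CD34, was at no more than 0.490 CPM in any library, and Emcn, another sialomucin, was at 0 in all 9. Muc1 reached at most 1.32 CPM. Without clone 1, 3 of the list rose, and none was called without clone 2, without clone 4 or without the untreated library of clone 1.

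Of the adhesion G protein-coupled receptors and ADGRG1 partners, 19 of 28 were tested, 4 rose and 2 fell, with a median log2 fold change of 0.29. Adgrg5 and Adgrg3, of the same subfamily as Adgrg1, are its nearest tested genes on either side, with gaps of 31462 and 2904 bases. Both rose with doxycycline, where Adgrg1 was lower. Adgrg5 was at 0.183, 0.378 and 0.124 CPM in untreated clones 1, 2 and 4, at 2.47, 7.67 and 4.94 CPM with doxycycline, and at 0.828, 0.858 and 0.367 CPM after the wash (log2 fold change with doxycycline 4.35, SE 0.66, adjusted p = 0.00586). Adgrg3 was at 165, 149 and 216 CPM untreated, at 379, 346 and 357 CPM with doxycycline, and at 281, 151 and 196 CPM after the wash (log2 fold change with doxycycline 1.03, SE 0.25, adjusted p = 0.0305). The doxycycline libraries of both were above all others, with washed clone 1 the nearest for Adgrg3. The rise of Adgrg3 did not pass without clone 1 (adjusted p = 0.0645), without clone 2 (0.127), without clone 4 (0.266) or without the untreated library of clone 1 (0.122). Its fall after the wash had an adjusted p of 0.0794, and 0.0129 without washed clone 1. The adjusted p of 0.0250 for that fall in the fit with clones as a replicate block also lay under the threshold.

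**Figure D4:**
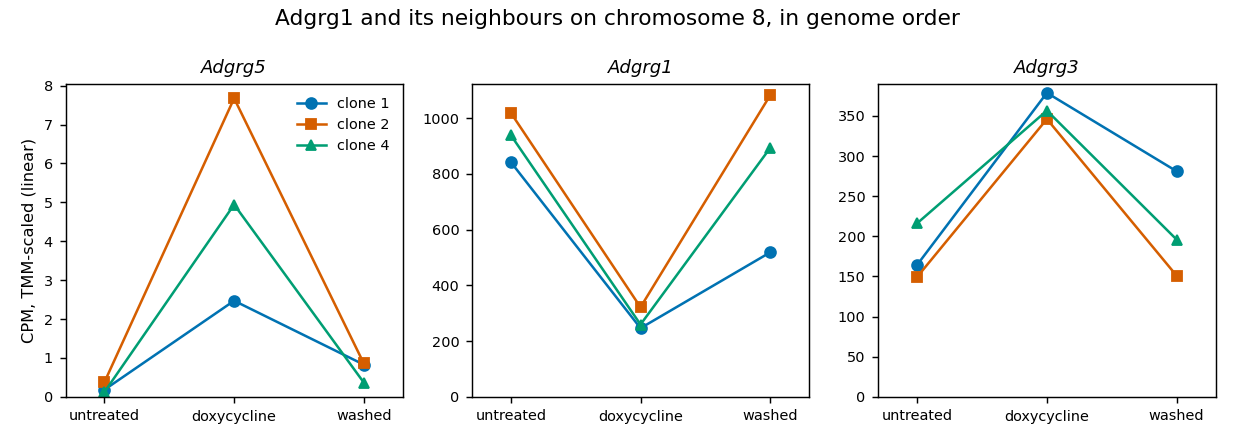
Level of Adgrg5, Adgrg1 and Adgrg3 in CPM (TMM-scaled, linear axes from 0), 3 neighbours on chromosome 8 drawn in genome order; points are libraries and lines join those of 1 clone. Adgrg1 dips with doxycycline in all 3 clones while the genes on both sides peak.

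Elsewhere among these receptors, Adgre4 had 0 counts in untreated cells and 7.23, 13.9 and 9.497 CPM with doxycycline, at least 73.1-fold higher against a floor of 3 counts over the group (adjusted p = 0.00350). Gna12, a G protein subunit downstream of ADGRG1, fell from 189 to 121 CPM (adjusted p = 0.0304). The other called genes, Tgm2, an extracellular ligand of ADGRG1, which rose by 1.25 on the log2 scale (adjusted p = 0.0485), and Plxnb2, which fell by 6.06 (adjusted p = 0.0333), are named after their values were seen. With clone 1 left out 2 genes of this list rose and 1 fell, with clone 2 left out 1 was called, with the untreated library of clone 1 left out 2 were, and with clone 4 left out none.

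Of progenitor transcription factors, 13 of 24 were tested, 1 rose and 0 fell, with a median log2 fold change of 0.29. Hhex, a homeobox factor of early blood cells, rose from 44.2 ± 3.86 to 118 ± 28.5 CPM (adjusted p = 0.00664) and was at 45.8 CPM after the wash. Gata2 was at 898, 1669 and 1405 CPM in untreated clones 1, 2 and 4 and at 238, 1167 and 504 CPM with doxycycline. It was lower with doxycycline in every clone, with an adjusted p of 0.396 and, in the fit with clones as a replicate block, 0.0465. Hoxa9 and Meis1, which many human leukaemias express, were at 0 in the untreated and doxycycline cells. The replicate block gave 2 that rose and 2 that fell. Hhex was called without clone 1, without clone 2 and without the untreated library of clone 1, and no gene of the list was called without clone 4.

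Nearest here means the nearest gene that passed the filter on low counts, so closer genes with few counts were passed over. Of these other neighbours, Chic2 near Kit, 530345 bases away, fell from 145 to 60.7 CPM (log2 fold change -1.26, adjusted p = 0.0327), and Srd5a3 on the other side did not pass (0.0526, and 0.0270 with the replicate block). Lamb3, 1594942 bases from Cd34, rose from 19.8 to 42.6 CPM (adjusted p = 0.0242), and Cr1l did not pass (0.930). Neighbours of Muc13 (Heg1 0.658, Itgb5 0.148), Flt3 (Polr1d 0.151, D5Ertd605e 0.680) and Cd93 (Thbd 0.116, Nxt1 0.888) gave adjusted p-values above the threshold. Both nearest tested genes passed for Adgrg1, a single one for Kit and for Cd34, and neither for the other 3. By the same threshold 6.57% of all tested genes were higher and 4.35% lower with doxycycline. Without clone 4, 0 of 12069 genes were called, so no neighbour passed there. The neighbours lay up to 1594942 bases away and their number was not tested against these shares, so nothing is read from this count. Thbd, which encodes a relative of CD93 and lies 28462 bases from Cd93, was at 1.38 CPM untreated and 0.329 CPM with doxycycline, and had an adjusted p of 0.0463 with the replicate block.

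The genes most like each of the 6 over the 9 libraries, by Pearson's r of log2 CPM among 9095 genes, are given as a description, since all share the same libraries and conditions. Kit was most like Rassf2 (r = 0.99), Slc66a2 (0.99) and Ncbp3 (0.98), and Cd34 most like Dgat2, Arhgef3 and Sptssa (0.98 each). Adgrg1 was most like Il9r (0.996), Ppm1l (0.995) and Nudt9 (0.99), and Il9r, the IL9 receptor chain, stood at 156 CPM untreated, 0.617 CPM with doxycycline and 132 CPM washed. Like Adgrg1 itself, all 3 had lower means with doxycycline than in the other conditions, and the genes listed for Kit and Cd34 had higher ones. Muc13 was most like Uspl1 (0.99), Unc5a (0.99) and Slc29a3 (0.99). For Flt3 the highest were Kpna2 (0.98), Zbtb34 (0.97) and Larp4 (0.97). Cd93 had the least close companions, Zfp62 (0.92), Plgrkt (0.88) and Ociad1 (0.87).

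Markers of other cell types that also bear these proteins were measured in the same libraries. Mast cells carry KIT, and the 10 mast cell markers summed to 1468 to 1764 CPM untreated, 201 to 1270 CPM with doxycycline and 679 to 1769 CPM washed. Washed clone 2, with the highest sum at 1769 CPM, had Kit at 48.8 CPM, and untreated clone 1, with 1764 CPM, had Kit at 94.3 CPM. Clone 1 with doxycycline had the lowest sum and Kit at 281 CPM. The part of mast cell markers in the level of Kit was not tested. Most of the sum was Cpa3, and Fcer1a, Mrgprb1 and Mrgprb2 were at 0 in all libraries. Endothelial cells carry CD34 and CD93, and their 8 markers summed to 959 to 1176, 831 to 977 and 869 to 1206 CPM, most of it Pecam1, with Cdh5, Kdr and Sox17 at 0 in all libraries. The 15 neutrophil and monocyte markers summed to 2081 to 2977 CPM untreated, 3818 to 6396 CPM with doxycycline and 2173 to 5071 CPM washed. The highest washed value was that of clone 1. Ly6c2 made up 74.5% to 83.0% of the untreated sums. With doxycycline it made up 30.4%, 80.3% and 58.7% in clones 1, 2 and 4, and in washed clone 1 35.2%. The higher sums with doxycycline thus came from different genes in different clones and do not show a shared rise of the 15. The 8 eosinophil markers, mostly Epx, summed to 8390 to 12441, 3386 to 4929 and 8348 to 10941 CPM. The 10 lymphoid markers did not exceed 6.53 CPM in sum in any library, and the 7 matched erythroid markers did not exceed 27.4 CPM. The part of the myeloid markers in the levels of the 6 genes was not tested.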

How the data were processed

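The 9 libraries are of sorted AML246 clones. Per the file headers, the authors deposited raw read counts per Entrez gene with gene coordinates and length. The submitters' processing notes name mm10, featureCounts, limma 3.22.0, edgeR 3.8.2 and CASAVA 1.8.2. Aligner, annotation and strand setting: not given in the sources used here. Of 27179 entries, 25275 matched a symbol in RefSeq and 1904 did not. Low counts were removed with filterByExpr, leaving 12004 entries. Counts were TMM-scaled and tested with edgeR 4.0.16 (quasi-likelihood, group means over 9 libraries) in R 4.3.3, with Benjamini-Hochberg adjustment at 0.05. DESeq2 1.42.0 and limma 3.58.1 (voom) served as alternatives, and figures used matplotlib 3.10.9. Scripts were tested on simulated counts.

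The 6 genes and the lists were chosen with earlier results of these data known. Named genes were up to 4 called genes of smallest p per list, the nearest tested genes, and the 3 most correlated genes with mean log2 CPM of at least 3; 1 gene the rule named is not reported here. Clones pair the libraries, as the same cells entered each condition: deviations of the same clone correlated at 0.29 to 0.68 in 9 pairs. The most alike libraries, clone 4 untreated and washed, still differed beyond sampling noise (chi-square over degrees of freedom 3.47), so each was kept. With counts of this depth a level of 1 CPM rests on few reads, and the Poisson intervals cover counting error only. The intervals of the log2 fold changes also cover the spread between libraries.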

Additional observations from a re-analysis of the deposited data

How the results depend on the processing

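Genes called between doxycycline and untreated cells numbered 1311, and 2138 with DESeq2, 2976 with the replicate block, 2026 with only these 2 groups, 2258 without the washed library of clone 1, 347 without the untreated one, and 0 to 967 with each clone left out. For washed against doxycycline cells, 1160 became 648 with library size alone, 1967 with DESeq2, 2744 with the replicate block, 324 with 2 groups, 1814 without washed clone 1, 717 without untreated clone 1, and 4 to 1069 with each clone left out. Clone differences, 0, became 74 with RLE factors, 1140 with library size alone, 1664 without a filter, 2764 with DESeq2, 1013 with voom, and 0 to 3067 with each clone left out. Clone by hairpin state, 0, became 5 with DESeq2 and 0 to 1198. The cause of these differences was not tested. Washed against untreated cells stayed at 0 genes in every setting run.

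Signs changed for washed-against-untreated values: Kit was at -0.034 with voom, -0.059 with the replicate block and -0.48 without washed clone 1. Without that library Adgrg1 was at 0.080, Muc13 at 0.049, Flt3 at -0.18 and Cd93 at 0.097, and Cd34 kept its sign at 0.18. With each clone left out, Kit ran from -0.27 to 0.21, Adgrg1 from -0.34 to 0.0115, Muc13 from -0.71 to 0.13 and Cd93 from -0.40 to 0.082, and Cd34 from 0.046 to 1.31. The directions of Kit, Cd34, Adgrg1 and Muc13 with doxycycline held in every setting run. They were known when the genes were picked and every setting used the same libraries, so this adds no support. With library size alone, all genes had a median log2 fold change of 0.23 with doxycycline, and 75.6% of called genes were higher, against 60.2%. Depth limited Flt3, and Muc13 with doxycycline.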
